A study of Rattus norvegicus with 24 samples.

Results

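The genes described here encode the respiratory chain and ATP synthase of the mitochondrion, whose transcripts were followed in a pair of rat muscles at 3 ages. They are the genes whose symbol in the array's annotation begins with Nduf, Sdh, Uqcr, Cox followed by a digit, or Atp5. This gave 55 genes of the 4736 named on the array, carried by 101 probe sets, and each gene was read at its brightest probe set by the mean over all 24 arrays. Another 6 probe sets match the same letters but carry several symbols and were left out. Of the 55 genes, 27 belong by symbol to complex I, 2 to complex II, 3 to complex III, 13 to complex IV and 10 to complex V, and 54 passed the filter on low signal. The exception was Cox6c-ps1, a pseudogene of Cox6c, whose mean signal was 41.8 units.

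The tissues were EOM, the extraocular muscles that turn the eyeball, and EDL, the extensor digitorum longus, a fast hindlimb muscle that extends the toes. Each was taken at 6, 18 and 30 months of age, with no treatment named in the labels. Each of the 6 groups held 4 arrays of the Affymetrix Rat Genome U34 type, and each array measured total RNA pooled from 4 animals, so that every error and p-value below measures the spread between pools, which may be technical. The sources used here give neither strain nor sex, and do not say whether both muscles were dissected from the same rats. Values are signals in arbitrary units from the authors' Microarray Suite 5.0 processing, differences are on the log2 scale with their standard error (SE), and a gene was called at an adjusted p under 0.05 in limma over all 5741 probe sets tested. A signal depends on the probes as well as on the transcript, so no gene's level is set against another gene's.

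Complexes I and II pass electrons from NADH and succinate to ubiquinone, complex III passes them to cytochrome c, and complex IV, cytochrome c oxidase, passes them to oxygen. Complexes I, III and IV pump protons, and complex V, the ATP synthase, uses the proton gradient to make ATP. Muscle carries much of this machinery. Cytochrome c oxidase is particular in that some of its small nuclear subunits exist in a general form and in a form known from heart and skeletal muscle, though not necessarily exclusive to them. Cox6a1 and Cox8a are the general forms of subunits 6a and 8, and Cox6a2 and Cox8b are the muscle forms. The extraocular muscles are known as fatigue-resistant muscles that are rich in mitochondria.

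The start regions of 3 of these 4 isoform genes are shown because the results turn on the difference between general and muscle forms. RefSeq start regions of assembly GRCr8, each of 300 bases with 250 before and 50 after the annotated start, were held for 47 of the 55 genes. The letters searched, on both strands, were CCGGAAG (ETS factors), AAGATGGC (YY1), TATAAA (the box bound by TBP), CTAAAAATA (MEF2) and CAGCTG (E-box), together with the palindrome bound by NRF1, and capitals mark every match. Cox6a2 lies at chr1:192219667-192219966, Cox8a at chr1:213833574-213833873 and Cox8b at chr1:205408224-205408523, all on the minus strand, and each sequence runs 5′ to 3′ along its gene.
Cox6a2: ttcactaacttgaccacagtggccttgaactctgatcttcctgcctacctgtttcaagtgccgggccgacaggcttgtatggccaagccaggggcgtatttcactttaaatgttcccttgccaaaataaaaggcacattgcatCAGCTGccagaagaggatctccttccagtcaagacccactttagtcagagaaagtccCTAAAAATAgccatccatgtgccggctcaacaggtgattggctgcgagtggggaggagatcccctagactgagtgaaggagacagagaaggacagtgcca
Cox8a: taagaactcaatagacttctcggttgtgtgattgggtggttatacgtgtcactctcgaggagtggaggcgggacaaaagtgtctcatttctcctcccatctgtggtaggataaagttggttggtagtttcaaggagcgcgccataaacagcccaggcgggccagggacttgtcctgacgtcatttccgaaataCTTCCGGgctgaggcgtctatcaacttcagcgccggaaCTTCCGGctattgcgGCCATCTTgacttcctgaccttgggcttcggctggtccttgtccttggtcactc
Cox8b: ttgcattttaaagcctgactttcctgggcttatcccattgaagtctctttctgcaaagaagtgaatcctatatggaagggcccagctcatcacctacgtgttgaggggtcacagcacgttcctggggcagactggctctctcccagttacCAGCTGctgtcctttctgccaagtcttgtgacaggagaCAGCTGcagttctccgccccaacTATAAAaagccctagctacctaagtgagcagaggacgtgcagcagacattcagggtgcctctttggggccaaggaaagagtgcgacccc

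The start region of Cox8a differed in these letters from those of the 2 muscle forms. No start region was held for Cox6a1, so these are single genes and not a comparison of general with muscle forms as kinds. The Cox8a region held the ETS letters at 2 places and the YY1 letters once, 4 bases before the start, and its sequence had 16 CpG dinucleotides. The Cox8b region held TATAAA once and the E-box letters at 2 places, with 5 CpG. The Cox6a2 region held the MEF2 letters and the E-box letters once each, also with 5 CpG. A match is a description of the letters only.

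Over the 47 genes, the YY1 letters stood in 11 start regions (23.4%), against 3.44% of all 27457 RefSeq start regions of this length and 3.98% of the 3871 that belong to genes on the array. The ETS letters stood in 21.3% of the 47, against 9.22% and 12.3%. TATAAA stood in 4.26%, against 14.3% and 11.3%, the E-box letters in 21.3%, against 15.1% and 17.2%, and the MEF2 letters in 2.13%, against 0.517% and 0.439%. The NRF1 palindrome stood in 1 of the 47 (2.13%), against 0.932% and 1.27%. The median GC content was 56%, against 52.3% and 60%. The 11 matches to the YY1 letters are shown with 6 bases on each side because 8 of them begin within the first 24 bases after the start. The letters contain ATG, and whether a match is its gene's start codon was not examined. In Cox8a the match is on the strand opposite to the gene. Each line gives the GRCr8 position and strand of the bases shown.
Ndufa3 (chr1:74515529-74515548, minus strand): aagaccAAGATGGCtgctag
Ndufa4l2 (chr7:65242162-65242181, plus strand): tggaacAAGATGGCaggaac
Ndufa6 (chr7:115750289-115750308, minus strand): cttagcAAGATGGCggccgc
Ndufa9 (chr4:161374147-161374166, minus strand): tgggagAAGATGGCggccgc
Ndufb8 (chr1:253362902-253362921, minus strand): aaggtgAAGATGGCggcgtc
Ndufs4 (chr2:47794897-47794916, minus strand): cacaggAAGATGGCggcggt
Ndufs6 (chr1:31797417-31797436, plus strand): gtcggcAAGATGGCggcggc
Ndufs7 (chr7:10110481-10110500, minus strand): gaggccAAGATGGCggcgct
Cox8a (chr1:213833614-213833633, minus strand): attgcgGCCATCTTgacttc
Atp5pf (chr11:37375199-37375218, minus strand): gtaggaAAGATGGCggagtc
Atp5po (chr11:44657469-44657488, minus strand): cgggaaAAGATGGCcgcacc

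The 24 arrays had median signals of 89.7 to 136.8 units over all probe sets. The 54 genes tested were bright: 43 of them were among the 575 brightest probe sets tested, those with a mean of 2600 units or more. The third array of every group had the lowest summed signal of these genes in its group, between 303698 and 367961 units, against 367884 to 497812 on the other arrays. The beta-actin probe sets for the 3' and 5' ends, whose ratio is a common measure of RNA integrity, gave ratios of 2.54 and 3.54 on replicates 1 and 2 of EDL at 6 months, against 1.13 to 2.12 on the other arrays. The main counts and medians that use these 2 arrays are given with and without them below.

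The muscles also differed in other cells. Summed signal of 3 Schwann cell markers was 757 to 1796 units in EDL arrays and 4165 to 6517 in EOM arrays, and all 3 were higher in EOM. All 4 smooth muscle markers (1450 to 3430 against 3419 to 9493 units), both red cell markers (2338 to 4589 against 7506 to 23531) and the 3 gland and retina markers tested were higher in EOM, as was 1 of 1 macrophage marker and 2 of 5 fat markers. None of 3 endothelial and none of 2 mast cell markers was called. Of the brown fat markers, Cidea was higher (log2 2.44), while Ucp1, the defining one, read 6.7 to 57.2 units over all arrays and was not tested. Of 8 muscle fibre markers, Myh13, the extraocular myosin, was higher and 6 were lower, with a summed signal of 139185 to 202224 units in EDL and 99487 to 155499 in EOM. Fewer cells of a type and less RNA per cell cannot be told apart in such samples. The part of these other cells in the differences below was not tested.

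Most respiratory chain and ATP synthase transcripts were not called different between EOM and EDL, which does not show that their levels were equal. Taking the mean over ages, 4 of the 54 genes were higher in EOM (Cox6a1, Cox8a, Ndufb10 and Atp5if1), 6 were lower (Sdhaf2, Ndufv3, Ndufb9, Atp5f1e, Atp5f1a and Atp5f1b) and 44 were not called. Thus 18.5% were called, against 42.3% of all probe sets tested (22.3% higher and 20% lower) and 56.2% of the 575 brightest. The median log2 difference of the 54 genes was -0.03, beside -0.06 for all probe sets tested and -0.17 for the 575 brightest. Cox6a1 and Cox8a, the general cytochrome c oxidase forms, were 2.11-fold and 2.13-fold higher in EOM, and the other 8 genes called lay between -0.45 and 0.37 on the log2 scale.

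**Figure D1:**
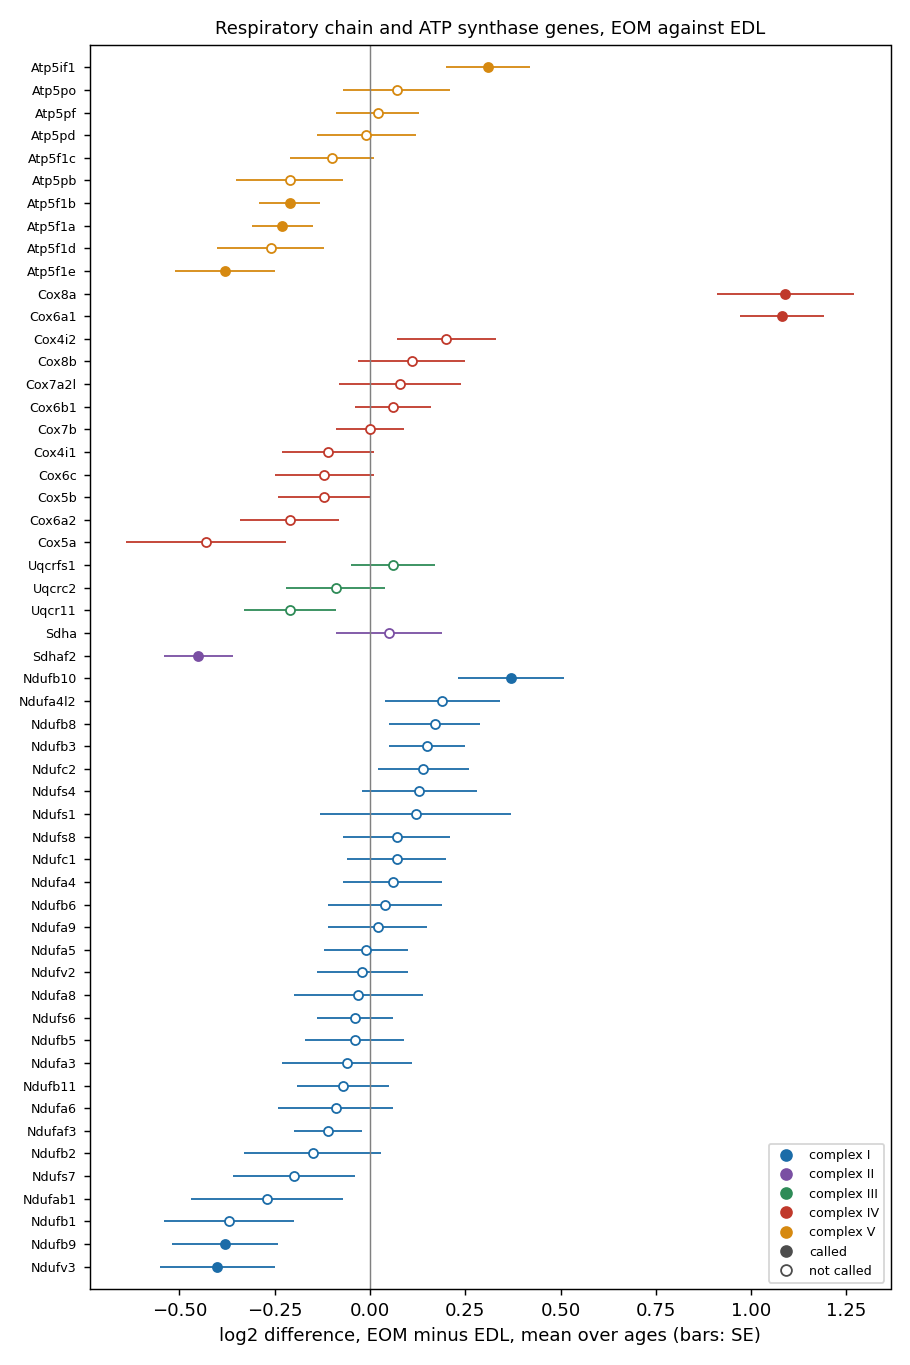
Log2 difference between EOM and EDL (mean over ages, horizontal axis) for each of the 54 genes tested, by complex; points are limma estimates, bars are 1 SE, and filled points were called at an adjusted p under 0.05. Cox8a and Cox6a1, at 1.09 and 1.08, stand far to the right of all other genes, which lie between -0.45 and 0.37.

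Which of the smaller differences were called depended on how the arrays were scaled. After quantile normalisation between arrays, 9 genes were higher and 3 lower (44.1% of all probe sets called). With arrays centred on their medians 2 were higher and 3 lower (41.6% of all probe sets called). Over the ages, Cox6a1, Cox8a and Sdhaf2 were called under each of these 3 scalings. The count fell from 10 to 6 without replicate 2 of EDL at 30 months, and also to 6 without replicate 3 of EOM at 30 months. Without replicates 1 and 2 of EDL at 6 months it was also 6, with 4 higher and 2 lower, and the median of the 54 genes was 0.02, beside -0.10 for all probe sets tested.

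Within complex IV, Cox6a1, the general form of subunit 6a, was higher in EOM at every age. In EDL its signal was 2891, 3198, 1733 and 2966 units at 6 months, 2542, 2326, 1968 and 2811 at 18 months, and 2836, 2856, 1811 and 2201 at 30 months. The EOM arrays gave 5516, 5289.5, 3696 and 5868 units at 6 months, 5285, 6272, 4267 and 5252 at 18 months, and 5184, 5967, 4757 and 5659.7 at 30 months. The lowest EOM array lay above the highest EDL array at each age. The log2 difference was 1.08 over the ages (SE 0.11, 2.11-fold, adjusted p = 3.48e-08 in limma). By age it was 0.93 at 6 months (adjusted p = 0.00126), 1.13 at 18 months (adjusted p = 0.000144) and 1.17 at 30 months (adjusted p = 0.00011). Its other 2 probe sets gave 1.27 and 0.82 and were also called. The name of the probe set read here, like those of Cox6a2 and Cox8b, marks probes that may match related transcripts.

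Its muscle counterpart Cox6a2 did not follow. In EDL its signal averaged 26790 ± 6420 units (SD, n = 4) at 6 months, 25980 ± 4520 at 18 months and 24890 ± 5350 at 30 months. In EOM it averaged 20240 ± 5770, 24180 ± 4650 and 23220 ± 5020 units. The arrays of the 2 muscles overlapped at every age, and the difference was not called (log2 -0.21, SE 0.13, adjusted p = 0.219 in limma).

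Cox8a, the general form of subunit 8, was also higher in EOM. In EDL its signal was 6780, 6063, 3657 and 6092 units at 6 months, 5292, 4852, 4785 and 6183 at 18 months, and 6468, 6267, 3888 and 6142 at 30 months. The EOM arrays gave 12975, 12984, 7909.8 and 14847 units at 6 months, 14041, 15787, 4241 and 14342 at 18 months, and 14052, 11519, 9212 and 15088 at 30 months. Every EOM array lay above every EDL array of its age except replicate 3 of EOM at 18 months. The log2 difference was 1.09 over the ages (SE 0.18, 2.13-fold, adjusted p = 2.16e-05 in limma), and its other 3 probe sets gave 1.77, 1.27 and 0.75, all called. At 6, 18 and 30 months it was 1.11 (adjusted p = 0.013), 1.04 (adjusted p = 0.0156) and 1.13 (adjusted p = 0.0104). With arrays centred on their medians Cox8a was not called at 6 months (1.03, adjusted p = 0.07) or at 18 months (0.96, adjusted p = 0.0746). At 18 months the call was also lost without replicate 1, 2 or 4 of EOM at that age (adjusted p = 0.0572 to 0.0687).

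Cox8b, the muscle form of subunit 8, averaged 17970 ± 2840, 18310 ± 6340 and 15060 ± 4190 units in EDL at 6, 18 and 30 months. In EOM it averaged 17160 ± 4140, 18520 ± 3340 and 19370 ± 4920 units. Its arrays overlapped throughout and it was not called (log2 0.11, SE 0.14, adjusted p = 0.527 in limma). After quantile normalisation the difference was 0.38 and was called higher in EOM (adjusted p = 0.00316), so that its call depends on the scaling.

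**Figure D2:**
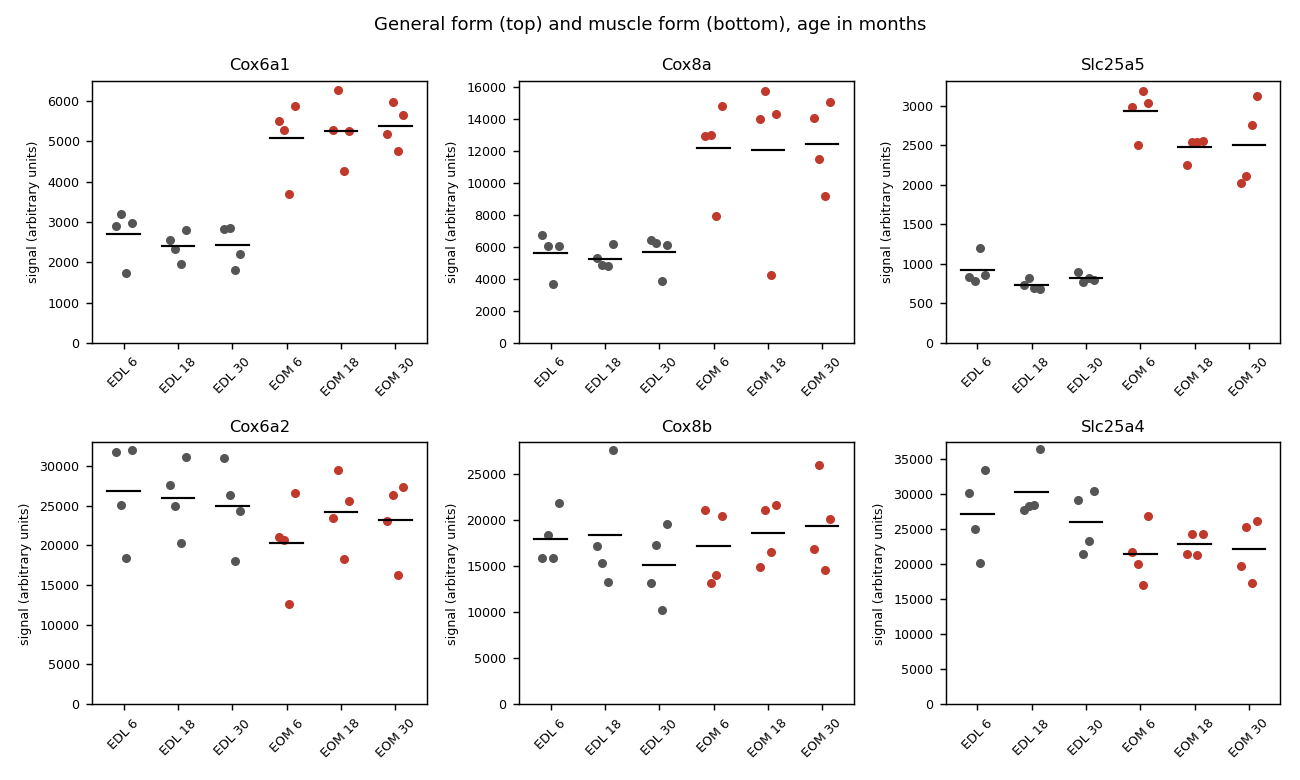
Signal in arbitrary units (vertical axis) of the general forms Cox6a1, Cox8a and Slc25a5 (top) and of the muscle forms Cox6a2, Cox8b and Slc25a4 (bottom) in each array; points are arrays, lines are group means, and groups are muscle and age in months. The general forms sit higher in EOM, with the single exception of 1 low Cox8a array at 18 months, whereas those of the muscle forms overlap between the muscles at each age, except Slc25a4 at 18 months.

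The change in the 2 forms relative to each other was read within each array. This removes a factor common to all signals of an array, but not a scaling that varies with signal, such as quantile normalisation. Log2 of Cox6a2 minus log2 of Cox6a1 was 3.32 ± 0.23, 3.42 ± 0.04 and 3.36 ± 0.13 (SD, n = 4) in EDL at 6, 18 and 30 months and 1.96 ± 0.17, 2.19 ± 0.08 and 2.08 ± 0.22 in EOM. The values are offsets between probe sets and do not say which form is more abundant, but their difference between muscles was -1.35, -1.23 and -1.27. No array overlapped, and each p was 0.0286 in an exact two-sided permutation test, the smallest that 4 against 4 arrays can give, or 0.0643 after adjustment over 9 tests. For Cox8b minus Cox8a the difference was -1.19 (adjusted p = 0.0643, exact permutation test) at 6 months, -0.98 (adjusted p = 0.171) at 18 months and -0.76 (adjusted p = 0.103) at 30 months. None of the 9 passed after adjustment. No single test could pass on its own, however far apart its arrays lay. Several tests must reach the smallest p together, so the number passing does not measure any single pair. With the next brightest probe set of each gene, 6 of 9 passed.

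**Figure D3:**
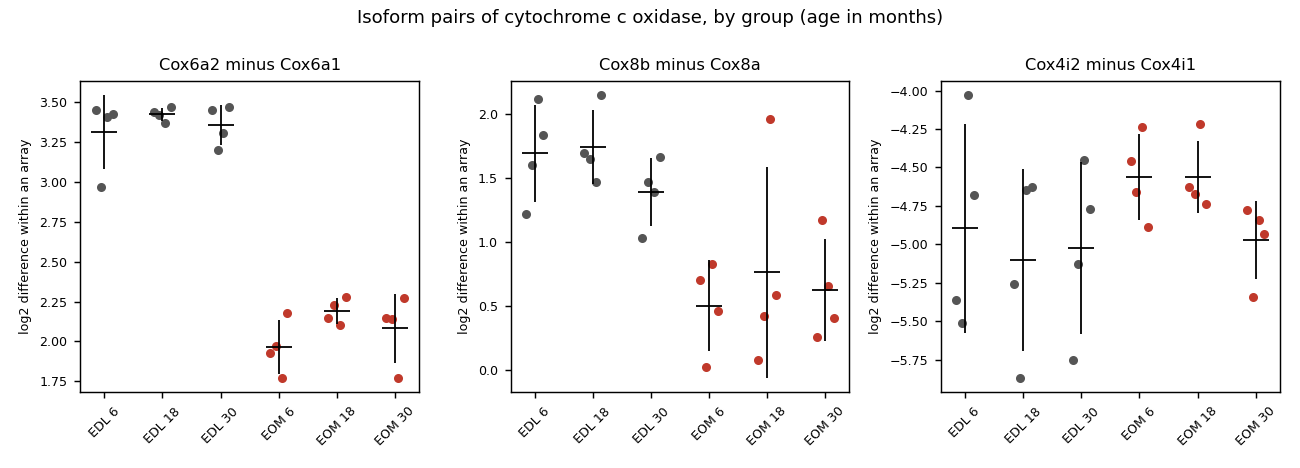
Log2 difference within an array between the forms of 3 cytochrome c oxidase subunits (vertical axis), by muscle and age in months; points are arrays, the cross line is the group mean and the bar 1 SD over 4 arrays. The Cox6a2 minus Cox6a1 points of EOM lie between 1.77 and 2.28, below all EDL points, while those of Cox4i2 minus Cox4i1 overlap.

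Subunit 4 behaved otherwise. Cox4i1, its general form, averaged 23010 ± 5290, 22130 ± 2460 and 20520 ± 2970 units in EDL at 6, 18 and 30 months and 19300 ± 4780, 20620 ± 3820 and 21310 ± 3720 in EOM (log2 -0.11, SE 0.12, adjusted p = 0.481 in limma; after quantile normalisation 0.18, adjusted p = 0.0354). Cox4i2, a form best known from lung and induced at low oxygen, averaged 773.3 ± 189, 671.6 ± 236 and 639.7 ± 147 units in EDL and 799.3 ± 80.8, 861 ± 64.3 and 678.8 ± 117 in EOM (log2 0.20, SE 0.13, adjusted p = 0.233). Their difference within arrays changed between muscles by 0.33, 0.54 and 0.05 (adjusted p = 0.418, 0.294 and 0.914, exact permutation test). Both forms overlapped between the muscles at each age.

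The other complex IV genes were not called on the deposited scale, with log2 differences from -0.43 for Cox5a, a nuclear-encoded subunit and the dimmest gene tested at a mean of 213 units, to 0.08 for Cox7a2l, which joins complexes into supercomplexes. Cox5a was called lower after quantile normalisation (-0.48, adjusted p = 0.0353) and with median centring (-0.48, adjusted p = 0.0319). Cox5b, Cox6b1, Cox6c and Cox7b gave -0.12, 0.06, -0.12 and 0.00, and Cox6b1 was called higher after quantile normalisation (0.25, adjusted p = 0.00468). In all, 2 of 12 complex IV genes tested were called in the mean over ages.

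Complex I had 27 genes tested, of which Ndufb10 was higher, Ndufb9 and Ndufv3 were lower and 24 were not called, with a median of -0.02 and a range of -0.40 to 0.37. Its brightest gene, Ndufb8 of the membrane arm, averaged 13520 ± 2810, 14530 ± 2100 and 12380 ± 3050 units in EDL and 14930 ± 3080, 14640 ± 1270 and 15750 ± 3140 in EOM and was not called (log2 0.17, SE 0.12, adjusted p = 0.243 in limma). After quantile normalisation Ndufb8 gave 0.39 (adjusted p = 0.00025). Ndufa4, listed with complex I by its symbol but known as a cytochrome c oxidase subunit, gave 0.06. The assembly factor Ndufaf3 gave -0.11 and the Ndufa4 relative Ndufa4l2 gave 0.19, neither called.

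Ndufb10, an accessory subunit of the membrane arm, was higher in EOM. In EDL its signal was 3779, 4494, 2049 and 2362 units at 6 months, 3042, 4229, 2833 and 2838 at 18 months, and 3253, 1312, 2182 and 2476 at 30 months. The EOM arrays gave 3921, 2940.1, 3038 and 3859.8 units, then 3876, 3926, 3206 and 3118, then 3458, 4964, 3931 and 3121. The muscles overlapped at each age. The log2 difference was 0.37 over the ages (SE 0.14, adjusted p = 0.0389 in limma) and 0.80 at 30 months (adjusted p = 0.0242), where it was lost without replicate 2 of EDL (0.55, adjusted p = 0.115) or replicate 2 of EOM (0.67, adjusted p = 0.0919). Over the ages the call was lost under 18 of 36 alternatives.

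Ndufb9, another accessory subunit of the membrane arm, was lower in EOM (log2 -0.38, SE 0.14, adjusted p = 0.029 in limma). It averaged 11590 ± 2730, 10450 ± 1970 and 8527 ± 1260 units in EDL at 6, 18 and 30 months and 8055 ± 1890, 7024 ± 2650 and 8598 ± 1520 in EOM. The arrays overlapped at each age, and the means at 30 months were nearly equal. Its call was lost under 9 of 36 alternatives, quantile normalisation among them (log2 -0.26, adjusted p = 0.111).

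Ndufv3, a small subunit of the NADH-binding module, was lower at its brightest probe set (log2 -0.40, SE 0.15, adjusted p = 0.0389 in limma) and higher at its other probe set (log2 0.49, adjusted p = 0.0141), so that its direction is not settled. The brightest probe set read 9646, 9603, 3527 and 6238 units in EDL at 6 months but only 5128, 5376, 4924 and 5772 in EOM. EDL was spread widely, with an SD of 2950 units at 6 months against 365 in EOM. The muscles overlapped at 6 and 30 months and were apart at 18 months, where EDL read 6558 to 9199 units and EOM 5098 to 5406. Without replicates 1 and 2 of EDL at 6 months the difference was -0.23 (adjusted p = 0.21).

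In complex II, Sdhaf2, the factor that helps attach the flavin cofactor to the catalytic subunit, was lower in EOM. In EDL its signal was 1672, 1130.1, 1217 and 1666 units at 6 months, 1664, 1744, 1840.2 and 1878 at 18 months, and 1235, 1453, 1768 and 1598 at 30 months. The EOM arrays gave 955.3, 1346, 1172 and 1209.6 units, then 1169, 1088, 1449 and 1146, then 1177, 1082, 914.6 and 1023. The muscles overlapped at 6 months and were fully apart at 18 and 30 months. The log2 difference was -0.45 over the ages (SE 0.09, 1.37-fold, adjusted p = 0.000345 in limma), -0.56 at 18 months (adjusted p = 0.012) and -0.52 at 30 months (adjusted p = 0.0231). At 30 months the call was lost without replicate 3 or 4 of EDL or replicate 3 of EOM, with median centring (-0.50, adjusted p = 0.105) and in a fit of only the groups compared (adjusted p = 0.0552). Sdha, the flavin-bearing catalytic subunit itself, was not called (log2 0.05, SE 0.14, adjusted p = 0.802), with 6896 ± 1020, 6134 ± 2280 and 6179 ± 378 units in EDL and 6641 ± 383, 6431 ± 1420 and 6410 ± 954 in EOM.

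None of the 3 complex III genes was called. Uqcr11, a small subunit and the brightest of them, averaged 17520 ± 4380, 17880 ± 2900 and 16390 ± 3370 units in EDL and 14510 ± 2550, 15100 ± 2130 and 14740 ± 2650 in EOM (log2 -0.21, SE 0.12, adjusted p = 0.163 in limma). Uqcrc2, a core subunit, gave -0.09 and Uqcrfs1, the iron-sulphur protein that hands electrons to cytochrome c1, gave 0.06. After quantile normalisation Uqcrfs1 gave 0.26 and was called (adjusted p = 0.00945).

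In complex V, 4 of 10 genes were called on the deposited scale, where 42.3% of all probe sets were called, and none of the 10 after quantile normalisation or median centring. On the deposited scale the alpha and beta subunits of the catalytic head and the epsilon subunit of the central stalk were lower in EOM, and the inhibitor was higher. Atp5f1e, the epsilon subunit, averaged 18350 ± 4370, 18580 ± 2970 and 16140 ± 5310 units in EDL and 13830 ± 2940, 12780 ± 2070 and 13940 ± 3330 in EOM (log2 -0.38, SE 0.13, adjusted p = 0.0179 in limma), and its other probe set gave -0.41 (adjusted p = 0.0183). The Atp5f1e call was lost after quantile normalisation (-0.18, adjusted p = 0.195), with median centring (-0.42, adjusted p = 0.0672) and without replicates 1 and 2 of EDL at 6 months (-0.29, adjusted p = 0.0829).

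Atp5f1a, the alpha subunit, averaged 10040 ± 1110, 9972 ± 536 and 8673 ± 1020 units in EDL and 8324 ± 1420, 8365 ± 949 and 7891 ± 1120 in EOM (log2 -0.23, SE 0.08, adjusted p = 0.0302 in limma). Atp5f1b, the beta subunit that holds the catalytic sites, averaged 19320 ± 2430, 20970 ± 1530 and 18960 ± 1600 units in EDL and 16370 ± 2240, 17810 ± 929 and 17240 ± 2790 in EOM (log2 -0.21, SE 0.08, adjusted p = 0.0408). At 18 months both lay lower on every EOM array than on any EDL array. Both were the steadiest genes of the set, with an SD within groups of 0.18 and 0.17 on the log2 scale. The differences were nonetheless small: quantile normalisation gave -0.11 (adjusted p = 0.25) for Atp5f1a and turned Atp5f1b to 0.06 (adjusted p = 0.479). Without replicates 1 and 2 of EDL at 6 months each gave -0.18 and neither was called (adjusted p = 0.108 and 0.11).

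Atp5if1, the protein that blocks the ATP synthase from running backwards, was higher in EOM (log2 0.31, SE 0.11, 1.24-fold, adjusted p = 0.0256 in limma). In EDL its signal was 1095, 1331, 1452 and 1018 units at 6 months, 1176, 1428, 1178 and 1231 at 18 months, and 1652, 2140.3, 1425 and 1692 at 30 months. The EOM arrays gave 1318, 1006, 1853 and 1753 units, then 1478, 1673, 2009 and 1822, then 1612, 2380.2, 2272 and 1734. EOM lay above EDL without overlap at 18 months only. Its 2 brightest probe sets are of a kind whose names mark probes that may match related transcripts, and the second of them gave 0.24 (adjusted p = 0.0934). The Atp5if1 call was lost after quantile normalisation (0.25, adjusted p = 0.061) and with median centring (0.26, adjusted p = 0.0978). The other 6 complex V genes, among them Atp5f1c and Atp5f1d of the central stalk (-0.10 and -0.26) and Atp5pb, Atp5pd, Atp5pf and Atp5po of the peripheral stalk (-0.21, -0.01, 0.02 and 0.07), were not called.

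**Figure D4:**
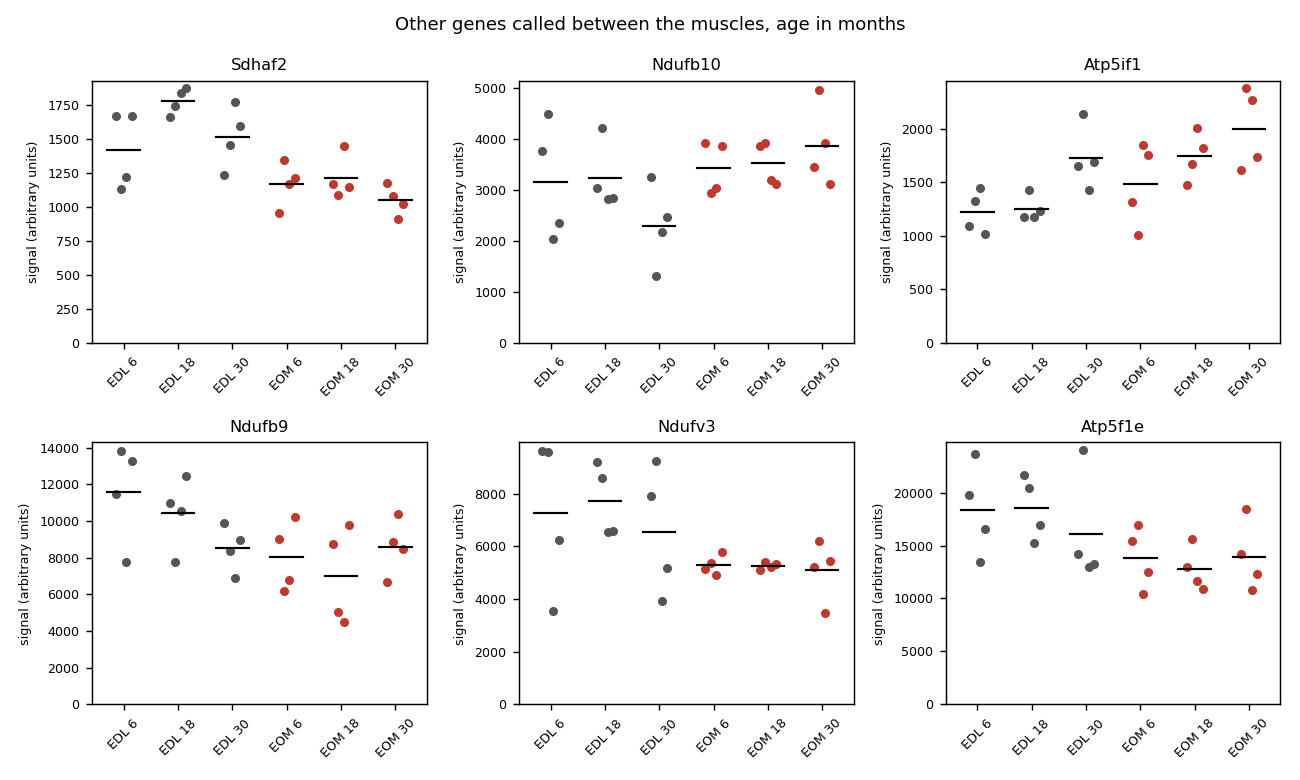
Signal in arbitrary units (vertical axis) of 6 of the other genes called between the muscles, in each array, by muscle and age in months; points are arrays and lines are group means. Sdhaf2 is apart at 18 and 30 months, with EOM arrays between 914.6 and 1449 units, while the points of Ndufb10, Ndufb9 and Atp5f1e overlap at each age and those of Ndufv3 and Atp5if1 are apart at 18 months only.

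At single ages fewer genes were called. At 6 months 2 of 54 were higher and none lower (3.7%, against 17.9% of all probe sets tested, 11.6% higher and 6.29% lower). At 18 months 2 were higher and 1 lower (5.56%, against 23.4%, or 14.1% higher and 9.25% lower). Quantile normalisation gave 2 higher and 2 lower (24.5% of all probe sets called) and median centring 1 higher and 2 lower (21.1%). The number called was 5 without replicate 1 of EOM at 18 months. At 30 months 3 were higher and 1 lower (7.41%, against 19.2%, or 11.4% higher and 7.79% lower). Quantile normalisation gave 8 higher and 1 lower (20.3% of all probe sets called), and median centring 2 higher and none lower (16.7%). The median of the 54 genes was -0.14 at 6 months, -0.11 at 18 months and 0.11 at 30 months, beside -0.04, -0.05 and -0.07 for all probe sets tested. Of the 27 complex I genes, 7 lay above 0 at 6 months, 9 at 18 months and 24 at 30 months, where 46.8%, 47% and 45.7% of all probe sets did. The values at 6 months depended on replicates 1 and 2 of EDL. Leaving these 2 out gives the third array more weight in EDL than in EOM. Without them the median at 6 months was 0.06, beside -0.12 for all probe sets, and 19 of 27 complex I genes lay above 0, where 41.4% of all probe sets did. The number called at 6 months was again 2.

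Among the neighbouring pathways listed, the largest difference was in the carriers that exchange ADP for ATP across the inner membrane. Slc25a5, the form found in most tissues, was 829.8, 788.5, 1204 and 858.1 units in EDL at 6 months, against 2992, 2509, 3189 and 3040.5 in EOM. Its group means were 920.1, 730.1 and 823.4 units in EDL at 6, 18 and 30 months and 2932, 2474 and 2505 in EOM, with no overlap at any age. The log2 difference was 1.68 (SE 0.09, 3.2-fold, adjusted p = 1.62e-13 in limma). Slc25a4, the form of heart and skeletal muscle, was lower, at -0.33 (SE 0.10, adjusted p = 0.0129), from 27170 ± 5800, 30210 ± 4120 and 26040 ± 4410 units in EDL to 21400 ± 4100, 22810 ± 1690 and 22080 ± 4310 in EOM.

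The counts that follow stand beside 42.3% of all probe sets called, 22.3% higher and 20% lower. Of 13 carriers and pores listed, 9 were tested, 4 were higher and 2 lower, with a median of 0.04. Ucp2, a broadly expressed uncoupling protein relative, gave 1.03 (adjusted p = 4.75e-06 in limma), Ak3, an adenylate kinase of the matrix, 0.47, Ckmt2, the mitochondrial creatine kinase of muscle, 0.19, and Vdac1, the main pore of the outer membrane, -0.65 (adjusted p = 0.000569). Among genes of electron entry, 1 of 4 tested was called (median -0.22), Etfa, which carries electrons from fatty acid oxidation (-0.37, adjusted p = 0.00915). Of the TCA cycle and pyruvate dehydrogenase, 1 of 9 was called (median -0.02), the isocitrate dehydrogenase Idh2 (-0.37, adjusted p = 0.0209), and citrate synthase, Cs, gave 0.03. Of 7 assembly and import genes (median -0.16) the chaperonin Hspd1 was higher (0.25) and Phb2 lower (-0.26). Of 5 regulators tested (median -0.06), Hif1a, the oxygen-sensing factor, was higher (0.89, adjusted p = 6.4e-05) and none was lower.

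No gene of the set was called with age in either muscle by limma in the main fit, nor in the interaction of age and muscle. An alternative fit with the replicate number as a block called 1 gene in EDL at 30 against 6 months. The share of all probe sets called in that fit is not given here, so this call stands without a background. Genes of the set at an unadjusted p under 0.05 in limma were also counted. In EDL there were 1 between 18 and 6 months (1.85%), 4 between 30 and 6 (7.41%) and 5 between 30 and 18 (9.26%). Of all probe sets tested, 7.66% passed at 18 against 6 months and 9.34% at 30 against 18. At 30 against 6 months 601 of the 5741 passed, a larger share than in the set. In EOM there were 0, 2 and 2 genes of the set (0%, 3.7% and 3.7%, against 3.97%, 2.3% and 2.37% of all probe sets). In the interaction there were 0 at 18 and 1 at 30 against 6 months (0% and 1.85%, against 4.41% and 4.49%). Of all probe sets tested in EDL, 1.86% were called at 30 against 6 months (1.48% higher and 0.383% lower), 0.279% at 18 against 6 (0.0348% higher and 0.244% lower) and 1.55% at 30 against 18 (1.52% higher and 0.0348% lower). In EOM 0.0348% were called at 30 against 6 months (all higher), 0.174% at 18 against 6 (0.0174% higher and 0.157% lower) and 0.0174% at 30 against 18. The interaction, taken as EOM change less EDL change, had 0% called at 18 and 0.192% at 30 against 6 months, all lower. The absence of calls does not show that the levels stayed the same.

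In EDL, 48 of the 54 genes lay lower at 30 than at 6 months, by a median of -0.17, where 46.5% of all probe sets tested and 53.4% of the 575 brightest were lower. By complex these were 25 of 27 genes of complex I, 1 of 2 of complex II, 3 of 3 of complex III, 11 of 12 of complex IV and 8 of 10 of complex V. Quantile normalisation gave 47 genes (median -0.12, with the median of all probe sets at -0.04) and median centring 52 (median -0.31, with all at -0.12), where the deposited scale puts all probe sets at 0.03. The lowest were Ndufb6 (log2 -0.59, SE 0.25, adjusted p = 0.379 in limma) and Ndufa4 (log2 -0.58, SE 0.22, adjusted p = 0.267). Ndufa4 read 9406, 9510.5, 7938.5 and 8056 units at 6 months and 7296, 2796, 7327 and 7689.5 at 30 months, so that 1 low array adds to a shift that all 4 share. Atp5if1 went the other way in both muscles, at 0.50 in EDL (SE 0.19, adjusted p = 0.277) and 0.45 in EOM (SE 0.19, adjusted p = 1.00).

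The count in EDL changed when 2 arrays at 6 months were left out. Without replicates 1 and 2, which had the high 3' to 5' actin ratio and the largest summed signals of the set, at 497812 and 478227 units, 25 of 54 genes lay lower at 30 months, with a median of 0.02, where 55.4% of all probe sets did. Leaving those 2 out gives the third array at 6 months, the lowest of its group at 307144 units, more weight than the third array at 30 months. Without replicate 3 of EDL at 30 months 39 lay lower. The parts of RNA quality and of the third arrays in the count were not tested. Between 30 and 18 months, which uses none of those 2 arrays but the same arrays at 30 months, 46 of 54 lay lower (median -0.21, against 52.7% of all probe sets and 59.7% of the 575 brightest). Of the 3 gland and retina markers, Klk1, a glandular kallikrein, was higher in EDL at 30 than at 6 months (log2 4.92, adjusted p = 4.73e-05 in limma), with means of 162.4 ± 171, 215.8 ± 131 and 3509 ± 2170 units (SD, n = 4) at 6, 18 and 30 months. Aqp5 (111.3 to 155.4 units) and Krt19 (12.7 to 37.5 units) were not called between 6 and 30 months. The summed signal of the 3 was 154 to 567 units at 6 months, 155 to 458 at 18 months and 2366 to 6937 at 30 months, and their part in the count was not tested.

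**Figure D5:**
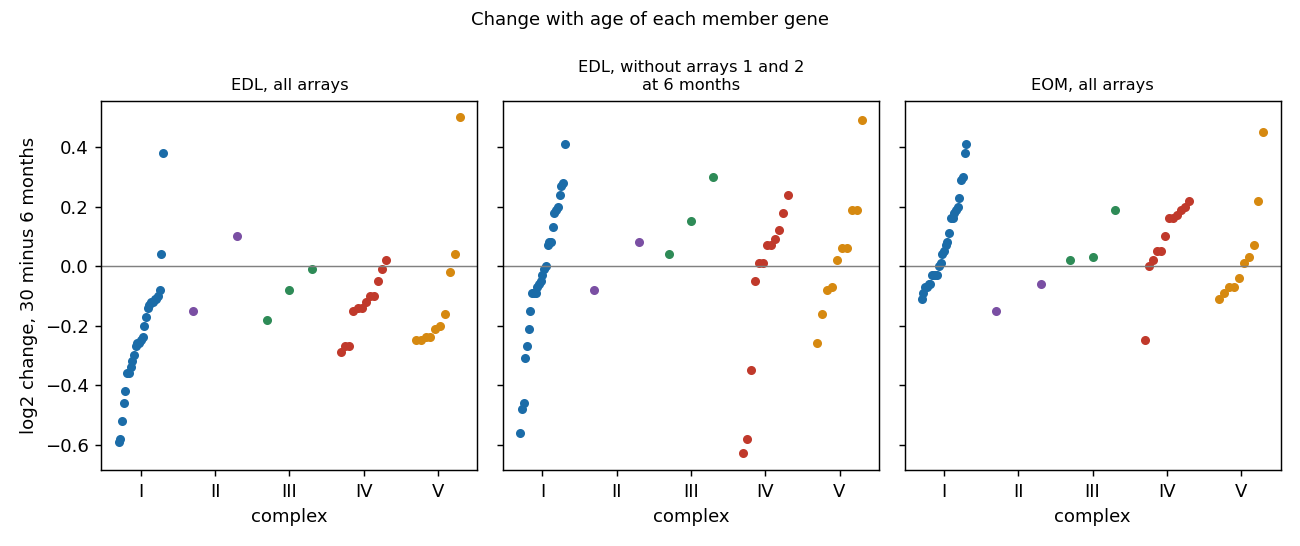
Log2 change from 6 to 30 months (vertical axis) of each of the 54 genes, by complex, in EDL with all arrays, in EDL without replicates 1 and 2 at 6 months, and in EOM; each point is a gene, in order of its value within a complex. In the first panel 48 points lie below the line at 0, in the middle panel 25, and in EOM 19.

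In EOM, between 6 and 30 months, 35 lay higher and 19 lower, with a median of 0.04, where 52.3% of all probe sets and 60.5% of the 575 brightest were higher, and 11 of 12 complex IV genes were among those higher. The single-gene changes ran from -0.25 to 0.45. For the general isoforms the differences were smaller than their errors: Cox6a1 gave 0.10 in EOM (SE 0.20) and -0.14 in EDL (SE 0.20), and Cox8a 0.05 (SE 0.31) and 0.02 (SE 0.31). None of 12 tests of an isoform pair with age passed (lowest adjusted p = 0.514, exact permutation test). Here too no single test could pass the adjustment on its own. In the interaction at 30 months, which shares its EDL arrays with the counts above, 49 of 54 lay above 0 (median 0.21, against 48.5% of all probe sets and 58.6% of the 575 brightest), 43 after quantile normalisation and 52 with median centring, and 36 did so without replicates 1 and 2 of EDL at 6 months (median 0.03). Of these only Cox7b, a small complex IV subunit, had an unadjusted p under 0.05 (log2 0.47, SE 0.22, adjusted p = 0.998 in limma).

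The set was measured with moderate precision. The median SD within groups was 0.34 on the log2 scale, beside 0.44 for all probe sets tested and 0.29 for the 575 brightest. It was largest for Ndufs1, the large iron-sulphur subunit of complex I, at 0.67, followed by Ndufab1, the acyl carrier protein of the mitochondrion, at 0.55 and Cox5a at 0.52. Ndufs1 read 646.5, 154.5, 986.3 and 1101.6 units on the EDL arrays at 6 months, a range that exceeds any difference between its groups.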

How the data were processed

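RNA of EDL and EOM was measured on 24 arrays, 4 per group, each a pool of 4 animals. The deposited values are linear intensities, made by the authors in Microarray Suite 5.0 (per the submitters' processing notes). They were used as already scaled. Of 8799 probe sets, 59 controls were removed, and 7006 of the other 8740 carried 1 gene symbol.

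Values below an array's 25th percentile were set to it and log2 was taken. Probe sets above the 40th percentile on at least 3 of 4 arrays of a group were tested, 5741 in all. A model of the 6 group means was fitted with lmFit and eBayes of limma 3.58.1 (R 4.3.3, trend on, 18 residual degrees of freedom) with Benjamini-Hochberg adjustment over all probe sets tested, and was tested on simulated data. Of 100 simulated differences of log2 0.5 between the muscles, 28 were recovered over the ages and 3 at 6 months. Of 100 of log2 1, 75 were recovered over the ages and 36 at 6 months. These were the only probe sets changed among 5741, whereas 42.3% were called over the ages in the data. The adjustment is stricter when fewer probe sets differ, so the simulation may understate what was recovered in the data. No change with age was simulated. A fold change understates differences near the floor. The number of arrays limits the precision.

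The genes and lists were chosen with earlier results of these data known. Values in every array or group are given for genes called, for isoform pairs and for the brightest gene of each complex. Although the labels list cyanine dyes, the design text describes a biotin stain, and the arrays were treated as 1-colour. Replicate numbers were shared between groups, and a fit with them as a block was an alternative, as were other scalings, floors, filters and left-out arrays. Start regions were taken from RefSeq (GRCr8).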

Additional observations from a re-analysis of the deposited data

Results flagged for a closer look

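Single arrays that stood apart from the other 3 of their group were sought in 324 groups of 4 (54 genes in 6 groups), by the gap to the nearest array as a share of the group's range. The gap passed Dixon's critical value in 20 groups. Chance flags about 1 in 20 groups, or 16.2 here, so the total over both muscles is close to that number. Most of the flagged groups were in EDL. Genes measured on the same array are not independent, so the total does not show that the flags arose by chance.

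In EDL at 6 months, replicate 3 was low for Ndufb1 (1623.8 units, others 2617.6 to 2663) and Ndufb2 (5107.5 units, others 9896 to 10880.2). In EDL at 18 months, replicate 3 was low for Sdha (2719.9 units, others 7112.7 to 7485.3) and Uqcr11 (13541.7 units, others 18956.7 to 19662). At the same age replicate 1 was low for Ndufa4 (7324.7 units, others 9537.5 to 9830.1) and replicate 2 was low for Ndufc2 (2461.8 units, others 4876.2 to 5130.9) and high for Ndufb10 (4228.8 units). Replicate 4 was high for Ndufab1 (14011.1 units, others 8005.6 to 8988.3).

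In EDL at 30 months, replicate 1 was high for Ndufa5 (6724.7 units), Cox7a2l (2021.8 units) and Atp5pd (8739.9 units). Replicate 2 was low for Ndufa4 (2796 units, others 7296.2 to 7689.5) and Ndufs1 (389.8 units, others 882.7 to 967.1) and high for Atp5f1e (24066.8 units). Replicate 3 was low for Ndufb3 (5587 units) and Cox8a (3887.8 units, others 6142.4 to 6467.9).

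In EOM, replicate 2 at 6 months was low for Atp5pb (2607 units, others 6715.4 to 6990.6) and replicate 3 at 18 months was low for Cox8a (4241.4 units, others 14041 to 15787.1). At 30 months replicate 2 was high for Ndufs6 (9865.3 units) and replicate 4 for Ndufv2 (12472.4 units, others 7962.8 to 8529.2).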

How the results depend on the processing

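Cox6a1 and Cox8a were called higher in EOM over the ages in all 37 alternatives (log2 1.01 to 1.27 and 1.00 to 1.27), and Sdhaf2 was called lower in 35 of 36. Genes called over the ages numbered 10, against 5 with arrays centred on their medians, 6 with no filter, 6 without an intensity trend and 6 without the 2 EDL arrays with a high actin ratio. At 6 months 2 were called, against 1 with median centring, 4 with the first 2 replicates and 0 with the last 2. At 18 months 3 were called, against 6 with only the groups compared, 5 with array weights and 0 with the last 2 replicates. At 30 months 4 were called, against 9 after quantile normalisation, 2 with median centring, 1 with the last 2 replicates and 2 without the third array of every group, an alternative chosen after seeing the data. Leaving out 1 array gave 6 to 11 over the ages, 2 to 3, 2 to 5 and 3 to 4 at the single ages, and 0 for age, interaction and isoform tests. The 48 genes lower in EDL at 30 than at 6 months became 39 to 49 with 1 array left out and 25 without the 2 arrays. The 46 lower than at 18 months became 41 to 49, and the 49 above 0 in the interaction 44 to 50. Ndufv3 turned to 0.49 at its other probe set and Atp5f1b to 0.06 after quantile normalisation. Isoform pairs passing rose from 0 to 6 of 9 with the next brightest probe sets, where no single test could pass the adjustment on its own. The cause was not tested for these changes. For most of these alternatives the share of all probe sets called is not given. A changed count therefore does not set these genes apart from the array as a whole.

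With the replicate number as a block, 16 genes were called over the ages, 6 at 6 months, 10 at 18 months, 7 at 30 months and 1 in EDL at 30 against 6 months. The share of all probe sets called in that fit is not given here, so these counts do not set the genes apart from the array as a whole. Deviations of same-numbered arrays correlated at -0.01 to 0.53 (median 0.285, 52 of 60 pairs over 0.1), and 22 of 24 arrays were closest to their own number, a hint from the data and not from the design.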
